A study of Mus musculus with 18 samples.

Results

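The early response of wild-type (WT) NIH-3T3 cells to carfilzomib (CFZ) was taken as the comparison of WT cells treated with 200 nM CFZ for 6 h with WT cells given DMSO, the vehicle. These are 6 of the 18 RNA-sequencing libraries of the series, 3 biological replicates in each of the 2 groups, chosen by their labels, and every expressed gene was followed, in particular the pathways outside the proteasome and unfolded protein response (UPR) lists of the study's heat map. The other 12 libraries are WT cells at 24 h of CFZ and an Nrf1 knockout (Nrf1KO) line of NIH-3T3, made with CRISPR/Cas9, in DMSO and at 6 and 24 h of CFZ. NIH-3T3 is an established, immortalized line of mouse embryo fibroblasts, so each value describes this single line. The labels give no time for the DMSO cultures, so the time spent in culture and the drug cannot be told apart. Nothing further is stated about how the replicates were grown. The p-values set each change against the spread between libraries of a group, estimated over all 18 libraries.

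CFZ is an irreversible inhibitor of the chymotrypsin-like site of the proteasome, the protease that removes ubiquitin-tagged proteins. When the proteasome is blocked, unfolded proteins collect and call on chaperones through heat shock factors, on endoplasmic reticulum (ER) stress and the integrated stress response, and on antioxidant genes under NRF2, a factor that the proteasome normally removes. Short-lived regulators such as p53, JUN and the cyclins are also proteasome clients, while NF-kappaB is held inactive by IkappaB proteins that the proteasome degrades. In fibroblasts these programs run beside the making of collagen and other matrix proteins.

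Total counts per library were 14347975 to 18941460 in DMSO and 13834196 to 14380452 at 6 h. Within each group the libraries correlated at 0.9955 or more on log2 CPM (each count as a share of its library's total, on a common scale), and between the groups at 0.971 or less. Levels below are CPM, scaled by edgeR's TMM method (trimmed mean of M values), and changes are log2 fold changes of CFZ 6 h over DMSO, with their standard error (SE). All 8 fibroblast markers, among them Col1a1, Vim and Thy1, were detected, with a summed level of 33800 to 36699 CPM in DMSO and 29776 to 32154 at 6 h. Markers of blood cells summed to 11.7 to 12.0 CPM and 6.26 to 8.34 CPM, with 4 of 7 at 0, and those of endothelium to 0.826 to 1.22 and 0.602 to 1.24 CPM, with 1 of 6 at 0. The epithelial markers summed to 142 to 151 CPM in DMSO and 128 to 137 at 6 h, with 5 of 8 at 0, nearly all of it Krt14. Of the markers tested, 7 of 8 for fibroblasts, 2 of 2 for epithelium and 1 of 3 for blood were lower at 6 h, and the 2 for endothelium did not pass.

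The factors behind these programs bind short DNA words near gene starts, so the 250 bases before each start were read from RefSeq (build GRCm38.p6) for the 9283 tested genes that had one, and each word was searched on both strands. Some genes had several starts. A gene was counted once if any of its windows held the word, so genes with more starts had more chances. The heat shock element was taken as GAANNTTC and TTCNNGAA in either order, overlapping by the shared 3 letters. It stood before 0.442% of all 9283 genes (41), before 1.1% of genes at least 2-fold higher at 6 h (4 of 362) and before 0.204% of those at least 2-fold lower. The antioxidant response element, TGACNNNGC, stood before 14% of all these genes, before 17.7% of genes at least 2-fold higher and before 14.1% of those at least 2-fold lower. For the C/EBP-ATF element, TGATGNAA, the share was 2.41% of all these genes and 3.04% of those at least 2-fold higher. Among genes at least 4-fold higher, the heat shock word stood before 0 of 69. For the antioxidant and C/EBP-ATF words the share there was 15.9% and 4.35%. In the lists described below, the antioxidant word stood before 33.3% of NRF2-type genes (10 of 30), the C/EBP-ATF word before 26.9% of genes of the ATF4 axis (7 of 26) and the heat shock word before 4% of genes of HSP70-type chaperones (1 of 25). No heat shock word stood before the 17 genes of the HSP90 list or the 9 of the small heat shock and BAG list. The metal response word, TGCNCNC, stood before 57.1% of all these genes and before 68.4% of those of the metal list. A match is only a description of the letters, and a window without one says nothing about the factor.

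The windows printed here belong to genes whose levels are given below, and show a heat shock word (Hspe1 and Nploc4), an antioxidant word (Gclm and Txnrd1) or a C/EBP-ATF word (Chac1 and Asns), in capitals. The window of Asns also holds 1 antioxidant word, left in lower case, which begins 172 bases before the start. Metal response words outside the capitals were left in lower case too. Each is written 5′ to 3′ on the gene's own strand. The window of Hspe1 lies at chr1:55087898-55088147 on the plus strand, and holds 2 overlapping heat shock matches and shares 215 bases with that of Hspd1, which starts in the other direction. The window of Nploc4 lies at chr11:120437701-120437950 on the minus strand, that of Gclm at chr3:122245307-122245556 on the plus strand, where the antioxidant word overlaps a metal response word, and that of Txnrd1 at chr10:82858956-82859205 on the plus strand. That of Chac1 is at chr2:119350992-119351241 on the plus strand and that of Asns at chr6:7693210-7693459 on the minus strand.
Hspe1: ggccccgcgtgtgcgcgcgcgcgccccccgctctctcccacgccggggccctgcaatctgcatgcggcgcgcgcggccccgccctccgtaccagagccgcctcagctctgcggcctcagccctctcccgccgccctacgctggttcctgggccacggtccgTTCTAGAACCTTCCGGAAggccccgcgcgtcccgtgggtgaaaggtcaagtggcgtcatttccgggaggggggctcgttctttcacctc
Nploc4: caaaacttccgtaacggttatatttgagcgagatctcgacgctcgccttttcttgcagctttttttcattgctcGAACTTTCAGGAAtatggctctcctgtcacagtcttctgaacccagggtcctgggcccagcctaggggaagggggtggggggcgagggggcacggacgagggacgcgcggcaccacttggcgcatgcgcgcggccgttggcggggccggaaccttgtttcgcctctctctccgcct
Gclm: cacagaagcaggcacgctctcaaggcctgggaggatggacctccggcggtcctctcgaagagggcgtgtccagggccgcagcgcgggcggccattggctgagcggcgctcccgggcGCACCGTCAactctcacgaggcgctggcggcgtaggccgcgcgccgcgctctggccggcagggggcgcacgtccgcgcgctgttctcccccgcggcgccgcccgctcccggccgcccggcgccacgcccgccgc
Txnrd1: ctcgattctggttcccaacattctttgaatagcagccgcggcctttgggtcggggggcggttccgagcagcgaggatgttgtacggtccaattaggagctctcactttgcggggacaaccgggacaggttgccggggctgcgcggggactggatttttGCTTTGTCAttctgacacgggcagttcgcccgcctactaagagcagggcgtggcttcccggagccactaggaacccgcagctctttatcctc
Chac1: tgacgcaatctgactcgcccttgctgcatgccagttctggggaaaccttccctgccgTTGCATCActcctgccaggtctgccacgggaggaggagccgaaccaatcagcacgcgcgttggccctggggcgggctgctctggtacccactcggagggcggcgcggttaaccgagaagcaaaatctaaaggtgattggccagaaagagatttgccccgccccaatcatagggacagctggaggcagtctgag
Asns: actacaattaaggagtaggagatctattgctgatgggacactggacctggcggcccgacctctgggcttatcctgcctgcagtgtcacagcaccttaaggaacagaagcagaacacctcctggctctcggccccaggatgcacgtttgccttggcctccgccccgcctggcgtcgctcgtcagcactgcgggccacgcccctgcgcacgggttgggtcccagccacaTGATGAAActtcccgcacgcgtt

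Of the 11762 genes tested, 8452 (71.9%) changed by 6 h at a Benjamini-Hochberg adjusted p-value under 0.05 in edgeR's quasi-likelihood test. There were 4190 higher genes (35.6%) and 4262 lower ones (36.2%), and any count of list members below is to be read against these shares. Most of the changes were small, with a median size of 0.43 on the log2 scale among changed genes, and 468 genes (3.98%) were at least 2-fold higher and 665 (5.65%) at least 2-fold lower. At least 4-fold, 101 were higher and 94 lower, and at least 8-fold, 36 were higher and 14 lower. In 8152 of the changed genes the 3 CFZ libraries did not overlap the 3 DMSO libraries, and in 300 they did. The share without overlap among the 3310 genes that did not pass is not given here. Non-overlap of a gene named below therefore describes its libraries and adds no support to the test. The median change of all genes tested was -0.02 and moved to -0.13 with upper-quartile scaling and to -0.15 when libraries were scaled by size alone, so list medians are to be read against that shift. With those scalings 37.9% and 35.4% of the changed genes were higher, in place of 49.6%.

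**Figure D1:**
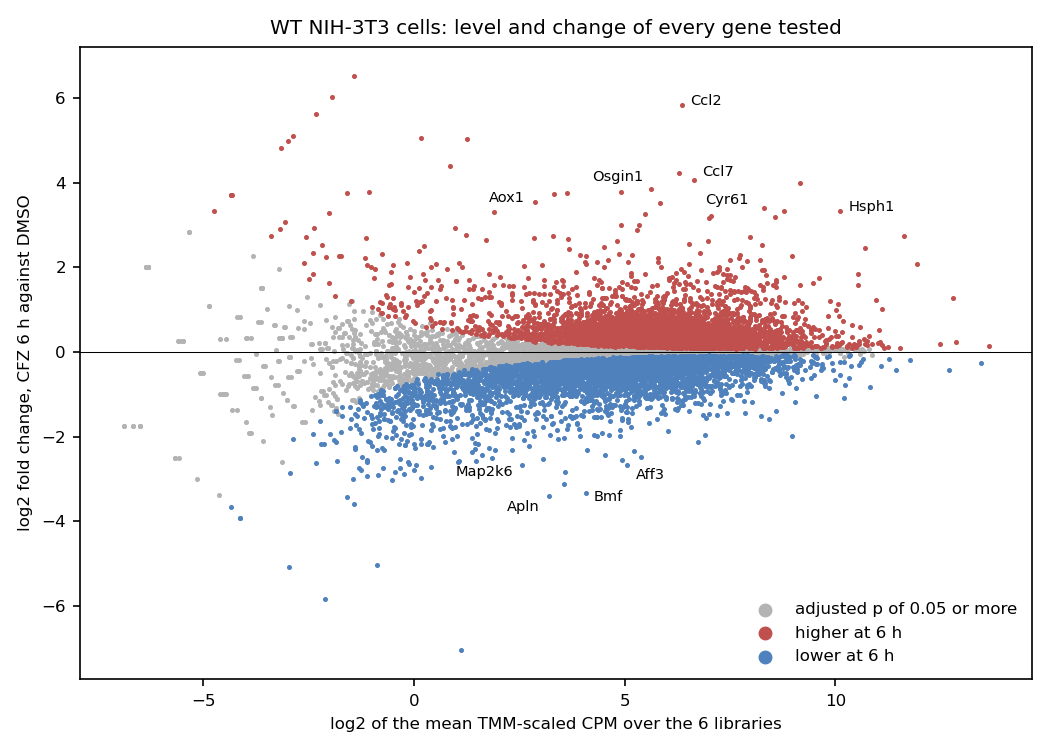
Each point is 1 of 11735 genes tested with a count in the 6 WT libraries. The x axis is the log2 of the mean TMM-scaled CPM over the 6 libraries and the y axis the log2 fold change of CFZ 6 h over DMSO, with the 4190 higher genes in red, the 4262 lower genes in blue and the others in grey. Of the labelled genes Ccl2 stands highest, at 5.84, with genes of fewer counts above it, and Hsph1 combines a high level with a change of 3.33.

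Outside the heat map lists and at a mean count of at least 50, the genes that rose most were chemokines, AP-1 and NRF2-linked genes and chaperones. Ccl2, a chemokine that draws monocytes, was at 2.08, 2.95 and 3.58 CPM in the 3 DMSO libraries and at 168, 161 and 155 CPM at 6 h. Its neighbor Ccl7, a chemokine of the same cluster, was at 10.1, 12.6 and 11.2 CPM in DMSO and at 194, 194 and 177 CPM at 6 h. For both, each CFZ library stood far above each DMSO library, with changes of 5.84 (SE 0.0807, adjusted p = 2.0e-32 by edgeR) and 4.06 (SE 0.0795, adjusted p = 1.5e-28), that is 57.3-fold and 16.7-fold. In the GRCm38 annotation Ccl2 lies at chr11:82035571-82037453 and Ccl7 at chr11:82045712-82047525, both on the plus strand. Cxcl1, which draws neutrophils, was at 2.23, 1.3 and 1.46 CPM in DMSO and 24.9, 22.3 and 21.5 CPM at 6 h (3.74, SE 0.12, adjusted p = 8.8e-23), again without overlap.

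Fosl1, which encodes the AP-1 subunit FRA1, was at 5.22, 7.91 and 6.17 CPM in DMSO and at 95.6, 89.4 and 91.3 CPM at 6 h. Osgin1, a growth inhibitor induced by oxidative stress, was at 3.91, 4.25 and 4.11 CPM and 57.7, 55.8 and 55 CPM. Both were higher in every CFZ library than in any DMSO library, by 3.85 (SE 0.0733, adjusted p = 8.1e-29 by edgeR) and 3.78 (SE 0.0786, adjusted p = 6.9e-28). In the annotation 57.2% of the exonic bases of Fosl1 lie opposite Ccdc85b, and the counting's use of strand is not given in the sources used here. Calr3, a calreticulin relative known from testis, was at 1.42, 1.48 and 1.33 CPM in DMSO and 18.2, 19 and 19.1 CPM at 6 h (3.73, SE 0.12, adjusted p = 2.1e-22). Aox1, the aldehyde oxidase, was at 0.964, 1.59 and 0.928 CPM and 14.5, 13.3 and 12.8 CPM (3.53, SE 0.14, adjusted p = 5.4e-20). Neither gene was abundant, and in both the groups were separate.

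The 3 abundant genes among the leading rises were Cyr61, Hsph1 and Dnajb1. Cyr61, a secreted matrix-bound protein and target of the growth regulator YAP, was at 49.5, 64.2 and 50.8 CPM in DMSO and at 584, 577 and 565 CPM at 6 h (3.39, SE 0.0555, adjusted p = 1.4e-30 by edgeR). The HSP110 chaperone Hsph1, which recharges HSP70, went from 201, 199 and 198 CPM to 2089.5, 2019 and 1909 CPM (3.33, SE 0.036, adjusted p = 3.4e-35). The HSP40 partner Dnajb1 went from 75.1, 85.5 and 82 CPM to 833, 803 and 777 CPM (3.32, SE 0.0475, adjusted p = 4.4e-32). All CFZ libraries were about 10 times the DMSO level for these genes (10.5-fold, 10.1-fold and 9.96-fold).

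**Figure D2:**
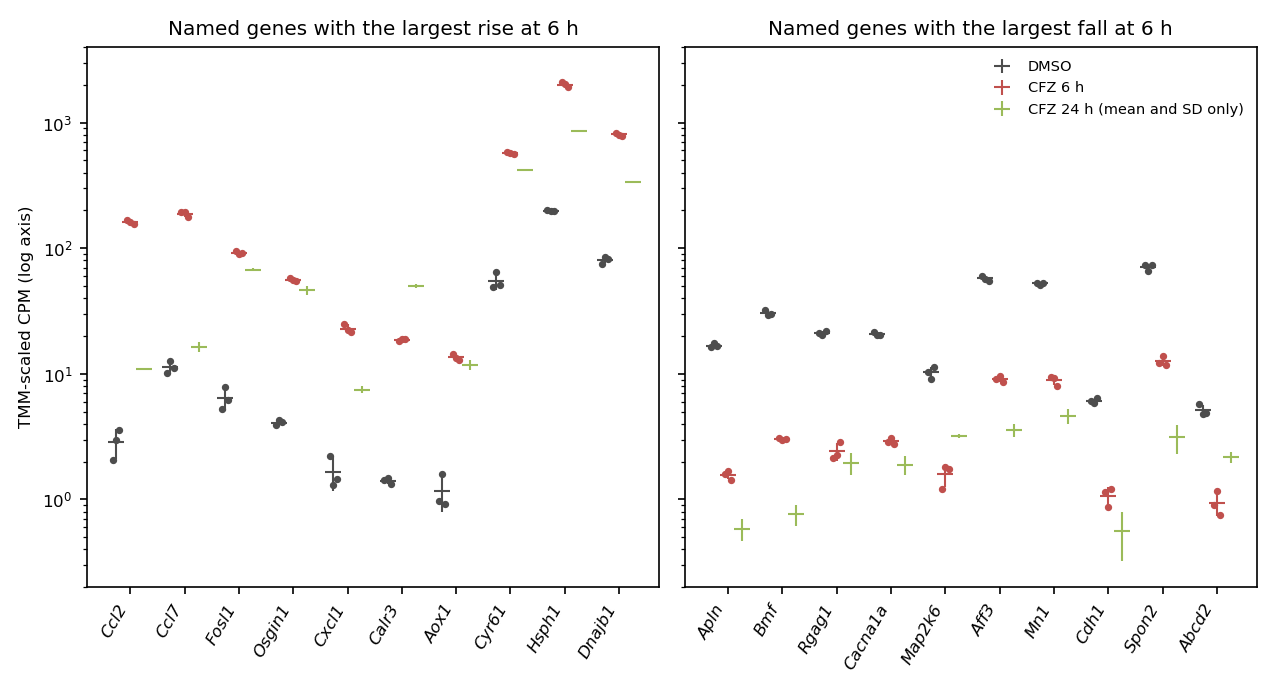
TMM-scaled CPM on a log axis of the 10 named genes with the largest rise (left) and the 10 with the largest fall (right) at 6 h. Dots are the 3 libraries of DMSO (grey) and of CFZ 6 h (red), and bars with whiskers are means and SD, CFZ 24 h (green) included. In each of the 20 genes the red dots lie apart from the grey ones, from Ccl2 at 2.87 and 161 CPM to Abcd2 at 5.14 and 0.943 CPM (means).

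The genes that fell most belonged to different functions. Apln, the secreted peptide apelin, was at 16.4, 17.5 and 16.5 CPM in DMSO and at 1.59, 1.67 and 1.43 CPM at 6 h. Bmf, a BH3-only protein that promotes apoptosis, was at 32.2, 29.6 and 29.97 CPM and 3.11, 2.99 and 3.01 CPM. Each CFZ library was below each DMSO library for both, with changes of -3.42 (SE 0.13, adjusted p = 1.3e-20 by edgeR) and -3.33 (SE 0.0976, adjusted p = 6.5e-24), 10.7-fold and 10.1-fold lower. Rgag1, a gene derived from a retrotransposon, was at 21.1, 20.5 and 21.9 CPM in DMSO and 2.12, 2.26 and 2.86 CPM at 6 h. Cacna1a, the pore of a neuronal calcium channel, was at 21.7, 20.5 and 20.6 CPM and 2.88, 3.06 and 2.79 CPM. The groups did not overlap, and the changes were -3.13 (adjusted p = 2.7e-21) and -2.84 (adjusted p = 3.2e-21).

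Map2k6, a kinase that activates p38 MAP kinases, was at 10.3, 9.09 and 11.3 CPM in DMSO and at 1.21, 1.82 and 1.73 CPM at 6 h. Aff3, a nuclear protein of the AF4 family, was at 60.1, 57 and 55.2 CPM and 9.02, 9.54 and 8.66 CPM, and the transcriptional regulator Mn1 at 53.3, 50.9 and 53 CPM and 9.48, 9.25 and 7.98 CPM. All 3 fell in every library, with log2 changes of -2.68 (adjusted p = 1.7e-15 by edgeR), -2.66 (adjusted p = 4.1e-26) and -2.56 (adjusted p = 8.1e-23). Spon2, a secreted matrix protein, was at 73.7, 65.5 and 73.1 CPM in DMSO and 12.3, 13.8 and 11.7 CPM at 6 h (-2.49, adjusted p = 2.8e-24). Cdh1, E-cadherin, and Abcd2, a peroxisomal fatty acid transporter, were low throughout, at 6.12 ± 0.231 and 5.14 ± 0.515 CPM in DMSO (mean ± SD, n = 3) and 1.07 ± 0.175 and 0.943 ± 0.208 CPM at 6 h. Their changes were -2.50 and -2.44, and the groups did not overlap in either.

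Some genes had almost no counts in 1 of the groups. Among genes with at most 3 counts over the 3 DMSO libraries, those with the highest level at 6 h were Serpina3f, a serine protease inhibitor, Dnmt3l, a cofactor of DNA methylation, BC055111, Elfn1 and Sstr5, a somatostatin receptor. Serpina3f had 3 counts in DMSO and 88 at 6 h, a ratio of 37.8 after scaling (95% exact interval 12.5 to 187, counting error only). Dnmt3l went from 3 to 36 counts (15.4, interval 4.88 to 78.4) and Elfn1, a synaptic adhesion protein, from 2 to 25 (16.1, interval 4.01 to 140). BC055111 and Sstr5 had no count in DMSO and 30 and 21 at 6 h, which is at least 12.9-fold and 9.01-fold higher against a floor of 3 counts over the group. With so few counts in DMSO, these genes passed the filter on counts only through other libraries. They were chosen by the same counts, so their ratios and intervals describe that choice and are no separate test. In the opposite direction, 16 changed genes with a gene symbol had at most 3 counts at 6 h, of which the most abundant in DMSO were chosen here after their values were seen. Fam19a5, a secreted brain protein, had 98, 77 and 52 counts in the DMSO libraries and 0, 0 and 1 at 6 h (ratio 176, interval 31.3 to 6996). Grpr, the receptor of gastrin-releasing peptide, had 24, 17 and 15 and then 1, 0 and 0 counts, and Chdh, choline dehydrogenase, 16, 7 and 13 and then 2, 0 and 0.

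The cytosolic chaperones rose as a broad group. Of 30 HSP70, HSP110 and HSP40 genes tested, 25 were higher and 4 lower, with a median of 0.54 against -0.02 over all genes, and 10 were at least 2-fold higher. Hspa8, the constitutive HSP70 and the most abundant of the named chaperones at 6 h after Hsp90ab1, was at 1500.2, 1469 and 1485 CPM in DMSO and at 6349, 6416 and 6154 CPM at 6 h (2.09, SE 0.0377, adjusted p = 1.9e-29 by edgeR). The inducible Hspa1b went from 27.3, 24.7 and 28.9 CPM to 156, 158 and 155 CPM (2.54, SE 0.0493) and its near copy Hspa1a from 1.89 ± 0.741 to 12.6 ± 1.47 CPM. Every CFZ library lay above every DMSO library in these 2 genes. Shared sequence was measured as read-length stretches of a gene's transcripts that also occur in another gene. Of these stretches, 43.8% for Hspa1a and 44.8% for Hspa1b are shared with each other or with Hspa1l. How reads were split between the 2 genes is therefore uncertain. The HSP40 gene Dnaja1 rose from 173 ± 0.58 to 826 ± 16.6 CPM (2.26). The lower members, named here because they were few, were Hspa12b (-0.63), Dnajb5 (-0.59), Hspa12a (-0.53) and Dnajb14 (-0.22), HSP70 and HSP40 relatives. The list had 2 lower members without CFZ replicate 3 and 3 without any other single library.

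The BAG and small heat shock proteins were divided, with 6 of 11 higher, 3 lower and a median of 0.18. Bag3, which hands clients of HSP70 to autophagy, was at 92.5, 89.4 and 89.8 CPM in DMSO and 532, 511 and 509 CPM at 6 h (2.51, SE 0.0389, adjusted p = 3.7e-31 by edgeR). Its partner Hspb8 went from 110.1, 105 and 109.7 CPM to 494, 483 and 484 CPM (2.17), and alpha-B crystallin, Cryab, from 199, 190.1 and 199 CPM to 587, 554 and 566 CPM (1.54), with 17% of the exonic bases of Cryab opposite Hspb2. These 3 genes rose in all libraries without overlap. Among the lower members, Hspb7 (-1.06), Hspb6 (-0.32) and Hspb11 (-0.26), Hspb7 was under 1 CPM and its call was lost with DESeq2 and without CFZ replicate 1 or 3 or DMSO replicate 3 (adjusted p up to 0.164), and 1 member of the list was lower without CFZ replicate 3 and 5 with both other scalings.

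HSP90 genes and their co-chaperones, which fold kinases and receptors, had 17 of 21 members higher and 3 lower (median 0.33). The inducible Hsp90aa1 was at 799, 841 and 815 CPM in DMSO and 5619.8, 5500.3 and 5312 CPM at 6 h (2.74, SE 0.0355, adjusted p = 4.0e-33 by edgeR), and the constitutive Hsp90ab1 at 4152, 4057 and 4095 CPM and 10186, 10024 and 9693 CPM (1.28, SE 0.0306). Both isoforms were separate between the groups, and 32.7% of the read-length transcript stretches of Hsp90aa1 are shared with predicted genes such as Gm12346. The co-chaperones Chordc1 and Stip1 rose by 2.23 and 1.58, from 73.3 ± 1.22 to 343 ± 11.1 and from 285 ± 4.94 to 855 ± 12.6 CPM. Lower were Stub1 (-0.42), Fkbp5 (-0.41) and Fkbp8 (-0.13), where Stub1 encodes CHIP, the ubiquitin ligase that tags HSP70 and HSP90 clients (134 ± 3.45 to 99.8 ± 1.34 CPM, 42.3% of its exonic bases opposite another gene).

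Of the heat shock factors themselves, Hsf2 went from 30.4, 30.6 and 33.9 CPM to 108, 108 and 104 CPM (1.76, SE 0.0438, adjusted p = 8.0e-26 by edgeR) and Hsf1, the main sensor, from 58.5, 64.7 and 59.3 CPM to 85.8, 85.6 and 88.7 CPM (0.51, SE 0.0451). Neither overlapped between the groups. Hsf4 was lower (-0.28, adjusted p = 0.0461), a call that was lost when any 1 of 5 of the 6 libraries was left out, with DESeq2 and with the replicate block (adjusted p up to 0.138), and Hsbp1 did not pass (-0.06), so that 2 of 4 were higher with a median of 0.22. The chaperonin TRiC and the prefoldins, which fold actin and tubulin, had 9 of 13 higher, none lower (2 with both other scalings) and a median of 0.44, from Vbp1 (-0.06, not past the test) to Cct7 (0.92, 362 ± 5.97 to 687 ± 14 CPM). All 8 members of that list that encode chaperonin subunits were higher, from Tcp1 (0.35) upward, and of the prefoldins Pfdn4 was (0.48).

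In mitochondria, the chaperonin pair stood out. Hspd1 (HSP60) was at 629, 670.3 and 625 CPM in DMSO and 2355, 2299.9 and 2247 CPM at 6 h (1.84, SE 0.0346, adjusted p = 5.5e-29 by edgeR), and its lid Hspe1 (HSP10), whose window is printed above, at 166, 171 and 163 CPM and 410.2, 392 and 381 CPM (1.24, SE 0.0456). The groups were separate in both, and the mitochondrial HSP70, Hspa9, changed by 0.22. Over the list of mitochondrial chaperones and proteases, 13 of 17 were higher and 4 lower (median 0.22). The lower ones were Oma1 (-0.93), Spg7 (-0.28), Htra2 (-0.17) and Afg3l1 (-0.13), with Oma1, a stress-activated inner membrane protease, at 11.3 ± 0.812 and 5.94 ± 0.442 CPM.

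Around the proteasome, the genes that build, cap and feed it had 15 of 25 higher and 6 lower, with a median of 0.35, beside the subunit genes of the heat map, which were all higher. Adrm1, a ubiquitin receptor of the proteasome, was at 79.2, 85.2 and 75.1 CPM in DMSO and 263, 257 and 266 CPM at 6 h (1.71, SE 0.0374, adjusted p = 2.6e-27 by edgeR). It shares 20.1% of its read-length transcript stretches with the predicted gene Gm9774. The deubiquitinase Usp14 rose by 1.24 (115 ± 5.47 to 271 ± 9.41 CPM) and the maturation factor Pomp by 0.79 (72.1 ± 2.37 to 124.6 ± 6.12 CPM). The CFZ libraries were above the DMSO libraries in these 3, whereas the assembly chaperone Psmd10 overlapped (0.10, adjusted p = 0.174). Psmb9, a subunit of the immunoproteasome, was lowest of the list (-0.52, adjusted p = 0.0365), from 2.81 ± 0.73 to 1.93 ± 0.535 CPM, and its call was lost with DESeq2 and without replicate 1 or 3 of either group (adjusted p up to 0.205). Leaving out DMSO replicate 1 or CFZ replicate 3 left 3 lower members in place of 6.

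The polyubiquitin gene Ubb rose, while the main activating enzyme of ubiquitin did not pass the test. Ubb was at 131, 119 and 129 CPM in DMSO and 497, 493 and 463 CPM at 6 h (1.94, SE 0.0479, adjusted p = 6.5e-26 by edgeR). Its libraries were separate between the groups, with 40.9% of its read-length transcript stretches shared with predicted genes. The main E1 enzyme Uba1 differed by 0.07 (adjusted p = 0.157), and of the 12 ubiquitin and E1 genes 7 were higher and 2, Uba7 (-0.84) and Sae1 (-0.11), lower, with a median of 0.11 that was 0.00106 with upper-quartile scaling and -0.02 by library size alone, where 5 were higher and 4 lower under each. Without DMSO replicate 2 or CFZ replicate 1 or 3, 1 member was lower, and the call of Uba7 was lost without CFZ replicate 3 (adjusted p = 0.0555). Zfand2a, a ubiquitin-binding partner of p97 and the proteasome in stressed cells, was at 26.6, 26.8 and 24.4 CPM in DMSO and 243, 238 and 238 CPM at 6 h (3.20, SE 0.041, adjusted p = 3.8e-33). Zfand5 rose by 1.47, and the ZFAND family had 4 of 7 higher and Zfand1 lower (-0.42), with a median of 0.31.

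For p97/VCP and its cofactors, which pull ubiquitinated proteins out of membranes and complexes, 18 of 22 were higher, 1 was lower (Ubxn2b (-0.40)) and the median was 0.46. With both other scalings 17 were higher and 3 lower. Nploc4 was at 132, 129.8 and 133 CPM in DMSO and 498, 506 and 501 CPM at 6 h (1.93, SE 0.0393, adjusted p = 4.3e-28 by edgeR), and its partner Ufd1l at 54.4, 59.3 and 57.5 CPM and 153, 161 and 159 CPM (1.47, SE 0.043). The pair rose in every library, and Vcp itself rose by 1.19, from 566 ± 1.8 to 1292 ± 7.07 CPM. Vcp shares 31.2% of its read-length transcript stretches with a copy. In the autophagy list 18 of 31 were higher and 7 lower (median 0.15, or 0.04 and 0.02 with those scalings). The cargo receptor Sqstm1 (p62) was at 519, 498 and 517 CPM in DMSO and 2916, 2757 and 2754 CPM at 6 h (2.46, SE 0.0363, adjusted p = 9.8e-32), and the ATG8 gene Gabarapl1 at 79.6 ± 4.58 and 281 ± 7.82 CPM (1.82). The ATG8 relative Map1lc3b instead fell by 0.36 (227 ± 9.87 to 177 ± 1.11 CPM), and Atg10, an E2-like enzyme of the ATG12 system, was lowest at -0.72.

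Lysosomal genes had no common direction, with 10 of 33 higher and 13 lower, and their median of 0.02 turned negative with upper-quartile scaling (-0.09), library size alone (-0.11), DESeq2 (-0.01) and no filter (-0.01). Atp6v1h, a subunit of the proton pump, was highest (1.24, 67.7 ± 2.63 to 159.8 ± 4.52 CPM), and beta-glucuronidase, Gusb, lowest (-0.57). The membrane protein Lamp1 overlapped between the groups (0.06, adjusted p = 0.13), the cathepsin gene Ctsl was at -0.12 and the regulator Tfeb at -0.44. The call of Ctsl was lost without DMSO replicate 1 or CFZ replicate 3 (adjusted p up to 0.127).

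In the ER, genes for folding, translocation and ER-associated degradation outside the heat map had 23 of 40 higher, 11 lower and a median of 0.19, or 15 higher, 15 lower and 0.06 by library size alone (21, 14 and 0.08 with upper-quartile scaling). Dnajb9, a BiP partner under the IRE1-XBP1 branch, was at 11, 10.8 and 10.1 CPM in DMSO and 22.1, 20.9 and 24.2 CPM at 6 h (1.07, SE 0.0945, adjusted p = 1.3e-11 by edgeR). The ER HSP90, Hsp90b1, rose by 0.62, the UPR factor Xbp1 by 0.58 and Herpud1, an ER-associated degradation component, by 0.45. None of the 4 overlapped between the groups, and the counts are totals per gene that do not show XBP1 splicing. Creb3l2, a membrane-bound factor that drives secretory genes in matrix-making cells, was at 88.6, 87.9 and 83.7 CPM in DMSO and 41.3, 38.1 and 40.2 CPM at 6 h (-1.12, SE 0.0597), the lowest of the list.

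The ATF4 axis of the integrated stress response was uneven. Outside the heat map 19 of 33 members were higher and 8 lower, with a median of 0.13 that was -0.00203 by library size alone. Chac1, which degrades glutathione and is a target of ATF4 and CHOP, was at 34.6, 34.9 and 35.3 CPM in DMSO and 91.9, 83.6 and 81.5 CPM at 6 h (1.29, SE 0.050, adjusted p = 1.2e-20 by edgeR). Atf4 rose by 0.55 (558 ± 14.2 to 816 ± 3.13 CPM) and the feedback inhibitor Trib3 by 0.52 (109 ± 4.19 to 156 ± 3.68 CPM), both without overlap. Asparagine synthetase, Asns, whose window holds the same word as that of Chac1, changed by 0.14 (496 ± 11.2 to 546 ± 9.83 CPM), and its call was lost with upper-quartile scaling and library size alone (adjusted p up to 0.886). Atf5 fell by 0.64 (367 ± 5.54 to 236 ± 7.69 CPM) and Cebpd by 1.28 (16.3 ± 0.833 to 6.72 ± 0.184 CPM). Gdf15, a secreted stress signal, stayed under 1 CPM in each group, so no fold is given for it.

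Cytosolic aminoacyl-tRNA synthetases, many of them known ATF4 targets, were higher in 17 of 20 with none lower and a median of 0.24. Nars rose most, by 0.57 (459 ± 18.8 to 681 ± 8.81 CPM), Gars by 0.17 and Sars by 0.11, while Vars did not pass (-0.09, adjusted p = 0.16 by edgeR). With upper-quartile scaling and library size alone, 11 and 10 synthetases were higher and 2 and 3 lower, the calls of Gars and Sars were lost, and Sars turned to -0.02 by library size alone. Amino acid transporters outside the heat map had 6 of 22 higher and 5 lower, Slc1a3 (-0.86), Slc3a1 (-0.81), Slc38a4 (-0.64), Slc6a6 (-0.37) and Slc36a1 (-0.28), or 4 higher and 10 lower with both other scalings, and their median of 0.01 turned negative with upper-quartile scaling (-0.10), library size alone (-0.12), DESeq2 (-0.01), no filter (-0.02) and without DMSO replicate 1 (-0.00305). Slc7a1, which imports arginine and lysine, was at 201, 224 and 198 CPM in DMSO and 382, 370.4 and 384 CPM at 6 h (0.87, SE 0.0488), with all CFZ libraries higher. The leucine importer Slc7a5 changed by 0.24 and the neutral amino acid importer Slc38a2 did not pass (0.07, adjusted p = 0.0872).

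Antioxidant and glutathione genes of the NRF2 type were higher in 32 of 36, with a median of 0.85 and 12 members at least 2-fold higher. Gclm, the modifier subunit of the enzyme that starts glutathione synthesis, was at 69.6, 74 and 74 CPM in DMSO and 355, 351 and 352 CPM at 6 h (2.28, SE 0.0364, adjusted p = 7.7e-31 by edgeR). Its catalytic partner Gclc was at 55, 56.7 and 57.9 CPM and 124.7, 133 and 133 CPM (1.21, SE 0.0421). Both subunits were separate between the groups. Srxn1, which repairs oxidized peroxiredoxins, was at 66.5, 65.2 and 65.8 CPM in DMSO and 444, 432 and 424 CPM at 6 h (2.72, SE 0.0374), and thioredoxin reductase, Txnrd1, at 168, 194 and 179 CPM and 579.7, 581 and 595 CPM (1.70, SE 0.0384). Nqo1, a quinone reductase often used to mark NRF2 activity, rose by 0.58 (113 ± 6.04 to 169 ± 3.9 CPM). The only lower member was Gstm1 (-0.09), and those that did not pass were Gstm2 (-0.10), Ephx1 (-0.02) and Gsta1 (0.82). Gstm1 and Gstm2 encode glutathione transferases of the mu class, and no member was lower without DMSO replicate 1 or 3 or CFZ replicate 1 or 3, while 3 were with both other scalings.

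Metallothioneins and zinc and iron genes had 12 of 23 higher and 7 lower, with a median of 0.11 that was -0.02 by library size alone. With upper-quartile scaling 7 were higher and 9 lower, and by library size alone 7 and 10. Mt1, a metallothionein, was at 249, 220.1 and 225 CPM in DMSO and 187, 172 and 171 CPM at 6 h, a change of -0.39 (SE 0.0545, adjusted p = 1.8e-07 by edgeR), and the CFZ libraries were the lower ones. Mt2 was at 164 ± 15.6 and 148 ± 11.7 CPM (-0.15, adjusted p = 0.0254), but its groups overlapped, 73.5% of its exonic bases lie opposite another gene, and its call was lost without DMSO replicate 1 or CFZ replicate 3 (adjusted p up to 0.417). The iron importer Slc11a2 was highest (0.84), the zinc transporter Slc39a13 lowest (-0.89), and the zinc exporter Slc30a1 differed by 0.19, a call lost with both other scalings (adjusted p up to 0.386).

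Of AP-1 and immediate early genes outside the heat map, 28 of 37 were higher and 6 lower, with a median of 0.62. Jun was at 84.1, 91.6 and 85.9 CPM in DMSO and 407, 386 and 369 CPM at 6 h (2.15, SE 0.0477, adjusted p = 3.9e-27 by edgeR) and Junb at 23.7, 22.1 and 24 CPM and 99.6, 86.9 and 93.3 CPM (2.0, SE 0.0563), without overlap. Fos, their usual partner in the first minutes after a stimulus, was at 1.72, 1.24 and 1.79 CPM in DMSO and 1.29, 1.97 and 1.81 CPM at 6 h (0.09, adjusted p = 0.731), and these libraries overlapped. The zinc finger factors Klf4 and Klf6 rose by 0.65 and 0.57. Egr2 and Egr3, relatives of the immediate early factor EGR1, were near or under 1 CPM in DMSO and changed by 0.70 and -1.24, and the call of Egr2 was lost without CFZ replicate 1 (adjusted p = 0.0531).

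The phosphatases and Sprouty proteins that switch off MAP kinase signaling were divided, with 8 of 16 higher and 6 lower, and their median of 0.09 was -0.02 with upper-quartile scaling, -0.04 by library size alone, 0.14 without CFZ replicate 1 and 0.05 without CFZ replicate 3. Dusp4 was at 0.203, 0.354 and 0.862 CPM in DMSO and 2.88, 3.2 and 4.22 CPM at 6 h (2.93, SE 0.28, adjusted p = 8.3e-11 by edgeR), and Spry4 at 0.964, 0.945 and 0.729 CPM and 6.75, 5.53 and 4.59 CPM (2.65, SE 0.19). Both started under 1 CPM and were higher in each CFZ library. Dusp1 rose by 0.81 and Dusp6 by 0.68, whereas Dusp7 fell by 1.03, from 42.3 ± 3.57 to 20.6 ± 0.324 CPM. Dusp8 was at 0.28 with overlapping libraries, and its call was lost with both other scalings and without CFZ replicate 3 (adjusted p up to 0.177).

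The NF-kappaB pathway and its inflammatory targets had the highest median of the lists outside the heat map, 1.53, with 23 of 27 members higher, none lower (1 with both other scalings) and 15 at least 2-fold higher. Of 37 genes listed 27 were tested, and the median ran from 1.19 to 1.56 when each replicate was left out in turn. Tnfaip3 (A20), a deubiquitinase that restrains the pathway, was at 3.04, 2.13 and 2.45 CPM in DMSO and 18, 16.1 and 17.5 CPM at 6 h (2.74, SE 0.13, adjusted p = 9.9e-19 by edgeR). Nfkbia, the IkappaB-alpha gene, was at 19.4, 19.96 and 19.4 CPM and 92.3, 93.3 and 89.6 CPM (2.23, SE 0.0488). Both inhibitors rose in every library, beside the chemokines Ccl2, Ccl7 and Cxcl1 of this list. The members that did not pass were Nfkbiz (-0.08), Vcam1 (-0.05), Birc2 (0.03) and Icam1 (2.01), with only a few counts behind the value of Icam1. Vcam1 and Icam1 encode adhesion molecules for white blood cells, Birc2 an inhibitor of apoptosis and Nfkbiz an atypical IkappaB.

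Secreted growth factors and cytokines had 9 of 28 members higher and 9 lower, with a median of 0.04 that turned to -0.06 with upper-quartile scaling, -0.08 by library size alone and -0.01 without DMSO replicate 3, and was 0.01 without DMSO replicate 1, 0.02 without CFZ replicate 3, 0.06 without CFZ replicate 1 and 0.08 without DMSO replicate 2. Hbegf, a ligand of the EGF receptor, was at 6.34, 6.02 and 5.1 CPM in DMSO and 17.1, 16.6 and 18.2 CPM at 6 h (1.56, SE 0.10, adjusted p = 1.5e-14 by edgeR), and Fgf10, a fibroblast signal to epithelium, at 71, 67.3 and 66.7 CPM and 33.1, 33.5 and 30.4 CPM (-1.08, SE 0.0516). They moved apart in opposite directions, without overlap in either. The cytokine gene Il11 did not pass (0.14, adjusted p = 0.6), and Fgf2 stayed under 1 CPM, with a call that was lost without DMSO replicate 1 or CFZ replicate 2 (adjusted p up to 0.261).

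Targets of p53 were higher in 22 of 30 and lower in 5 (8 by library size alone), with a median of 0.73 and 10 at least 2-fold higher. Fas, a death receptor, was at 9.38, 8.86 and 8.68 CPM in DMSO and 78.3, 72.2 and 65.4 CPM at 6 h (3.0, SE 0.078, adjusted p = 2.6e-25 by edgeR). Gadd45a, a growth arrest gene, was at 35.8, 37 and 36 CPM and 187, 182 and 182 CPM (2.34, SE 0.0418), and Mdm2, the ligase that tags p53, at 76, 77 and 77.2 CPM and 265, 265 and 275 CPM (1.81, SE 0.0352). All 3 were separate between the groups. The CDK inhibitor Cdkn1a (p21) rose by 0.73 (125.4 ± 1.27 to 208 ± 6.92 CPM), and Ccng1 by 0.50. The lower members were Pml (-0.78), Sesn1 (-0.59), Ddb2 (-0.49), Ckap2 (-0.42) and Rrm2b (-0.24), which include the DNA repair genes Ddb2 and Rrm2b and the nuclear body gene Pml.

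In the BCL2 family, which sets the mitochondrial step of apoptosis, 5 of 15 were higher and 8 lower, with a median of -0.26. With upper-quartile scaling 3 were higher and 8 lower (median -0.37), and by library size alone 3 and 10 (-0.39). The BH3-only genes went different ways. Pmaip1 (NOXA) was at 6.39, 6.26 and 6.83 CPM in DMSO and 29.7, 25.5 and 26.7 CPM at 6 h (2.07, SE 0.0847, adjusted p = 5.1e-20 by edgeR), Bcl2l11 (BIM) at 21.5, 19.4 and 20.9 CPM and 7.66, 6.92 and 6.63 CPM (-1.54, SE 0.0974), and Bbc3 (PUMA) at 24.2, 24.4 and 24.5 CPM and 24.9, 21.6 and 24.8 CPM (-0.04, adjusted p = 0.64). NOXA was higher and BIM, like Bmf above, lower in every CFZ library, while the PUMA libraries overlapped. The survival gene Mcl1, which NOXA antagonizes, changed by 0.24 (161 ± 1.91 to 191 ± 7.94 CPM). The higher members were Pmaip1 (2.07), Bid (0.64), Mcl1 (0.24), Bax (0.19) and Bak1 (0.12).

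Hypoxia genes, whose factor HIF-1alpha is normally removed by the proteasome, were mixed, with 8 of 21 higher and 7 lower and a median of 0.08 that was -0.03 with upper-quartile scaling, -0.06 by library size alone and 0.03 without DMSO replicate 2. P4ha2, a collagen prolyl hydroxylase, was at 63.3, 60.4 and 58.9 CPM in DMSO and 133, 119.9 and 118 CPM at 6 h (1.02, SE 0.0427, adjusted p = 1.0e-19 by edgeR). The glucose transporter Slc2a1 rose by 0.70 and Hif1a by 0.37, but Egln3, a classical HIF target, overlapped (0.11, adjusted p = 0.37). Ankrd37, another HIF target, was at 1.61 ± 0.124 CPM in DMSO and 0.249 ± 0.116 CPM at 6 h (-2.65), with 26.4% of its exonic bases opposite another gene. Of the glycolytic enzymes 6 of 13 were higher and 4 lower, from Tpi1 (-0.47) to hexokinase Hk2 (0.73), with a median of 0.08 that was -0.03 and -0.06 under the same scalings.

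Genes of mitosis fell almost throughout. Of 53 tested, 49 were lower and 2 higher, with a median of -0.59 against -0.02 over all genes, though only 3 were at least 2-fold lower. Plk1, the kinase that drives mitotic entry, was at 82, 88.8 and 82.8 CPM in DMSO and 29.2, 31.2 and 32.9 CPM at 6 h (-1.44, SE 0.0513, adjusted p = 1.3e-21 by edgeR). Cyclin B1, Ccnb1, was at 120.2, 131 and 126 CPM and 77, 77.9 and 75.2 CPM (-0.71, SE 0.0394), and Cdc20, which starts the destruction of cyclin B, at 195, 192 and 200.4 CPM and 111, 114 and 122 CPM (-0.76, SE 0.0371). The CFZ libraries were the lower ones in all 3. Aurora kinase A, Aurka, fell by 0.36 and the kinetochore motor Cenpe by 0.44. The higher members were Cdca5 (0.17) and Bub3 (0.16), none was higher under either of the other scalings, and the call of Cdca5 was lost under 8 of 13 alternatives, among them the omission of 4 of the 6 libraries in turn (adjusted p up to 0.618).

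Replication genes showed no such common fall, with 10 of 48 higher, 17 lower (29 and 30 with upper-quartile scaling and library size alone) and a median of -0.05, which ran from -0.08 without CFZ replicate 3 to -0.02 without CFZ replicate 1 and -0.01 without DMSO replicate 2. Thymidine kinase, Tk1, was at 62.4, 66.1 and 60.9 CPM in DMSO and 28.1, 29.3 and 31.3 CPM at 6 h (-1.09, SE 0.0543, adjusted p = 8.0e-18 by edgeR), below every DMSO library. The E-type cyclins Ccne1 and Ccne2 fell by 0.60 and 0.38, the helicase assembly gene Gins3 rose by 0.84, and the G1/S genes E2f1 (-0.05) and Cdc6 (0.13) did not pass. The helicase subunit Mcm5 was at 0.13 with overlapping libraries, a call lost without DMSO replicate 1 or CFZ replicate 3, with DESeq2 and with upper-quartile scaling, and turned to -0.00653 by library size alone. Among the genes that gate cell cycle entry 9 of 12 were lower, with a median of -0.57, and 1 member of that list was higher, Rb1 (0.25), the retinoblastoma gene. The CDK inhibitor Cdkn1a (p21), counted above with the p53 targets, rose by 0.73. Both cyclin D1, Ccnd1 (149.6 ± 9.29 to 94.1 ± 4.5 CPM, -0.67), and the CDK inhibitors Cdkn1b (p27, 152 ± 4.7 to 73.7 ± 0.288 CPM, -1.04) and Cdkn2d (19.4 ± 0.628 to 6.77 ± 0.661 CPM, -1.52) fell. Of 41 clustered histone genes only 6 were tested, and those lower were Hist3h2a (-1.79), Hist1h2bc (-1.16) and Hist2h2be (-0.97) (median -0.82), all under 3 CPM in DMSO. Hist3h2a shares 28.9% of its read-length transcript stretches with Trim17, and Hist1h2bc 21.8% with other histone genes.

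Ribosome biogenesis and RNA polymerase I genes were higher in 47 of 53, with a median of 0.45. Wdr43, a factor of the small subunit processome, was at 94.5, 109 and 105 CPM in DMSO and 177, 178 and 180.4 CPM at 6 h (0.79, SE 0.0405, adjusted p = 1.6e-17 by edgeR), and Rrs1 at 57.9 ± 5.45 and 94.8 ± 3.44 CPM (0.71). The polymerase I subunit Polr1b rose by 0.37, the snoRNP gene Nop56 by 0.26 and the initiation factor gene Taf1a by 1.37. The 2 lower members were Ubtf (-0.98) and Nop10 (-0.61). Ubtf, the architectural factor of ribosomal DNA, was at 219, 233 and 224 CPM in DMSO and 114, 114 and 114 CPM at 6 h (SE 0.035, adjusted p = 1.3e-21). Of the ribosomal protein genes themselves, 19 of 76 were higher and none lower, with a median of 0.06, a sign that turned with upper-quartile scaling (-0.05) and library size alone (-0.08), as did that of Rplp0 (0.12, -0.01 by library size alone). With those scalings 2 and 0 ribosomal protein genes were higher and 11 and 28 lower, and leaving out DMSO replicate 1 or 3 gave 33 or 12 higher ones, with a median of 0.10 without DMSO replicate 1.

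Respiratory and lipid genes had medians close to that of all genes. Respiratory chain subunits had 12 of 75 higher and 31 lower (median -0.06), or 3 and 53 with upper-quartile scaling and 2 and 54 by library size alone, from Ndufb3 (-0.49) to Ndufa10 (0.51), both of complex I, and cytochrome c, Cycs, did not pass (0.12). Cholesterol and fatty acid genes had 17 of 36 higher and 13 lower, and their median of 0.07 turned to -0.04 with upper-quartile scaling and -0.06 by library size alone. Insig1, which restrains sterol synthesis, rose by 0.56 and Sqle, a sterol synthesis enzyme, by 0.33, whereas Abca1, the cholesterol exporter, fell by 1.31 (7.96 ± 0.356 to 3.21 ± 0.389 CPM).

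BET bromodomain genes and the elongation factor P-TEFb with its partners had 10 of 17 higher, 6 lower and a median of 0.30. Brd2 was at 353, 378 and 368 CPM in DMSO and 636, 645 and 652 CPM at 6 h (0.81, SE 0.0326, adjusted p = 3.0e-20 by edgeR), and Aff1, a scaffold of the super elongation complex, at 79.98, 81.3 and 79.4 CPM and 245, 217 and 225 CPM (1.51, SE 0.0572). The P-TEFb inhibitors Hexim1 (64.1 ± 2.76 to 41.2 ± 0.431 CPM, -0.64) and Hexim2 (-1.25) moved the other way, and the groups did not overlap in these 4 genes. Nonsense-mediated decay factors were higher in 16 of 18 with none lower (median 0.40), led by Rbm8a of the exon junction complex (0.74), while Upf1 and Magohb overlapped (0.06 and -0.12). Among snoRNA host genes, whose spliced RNAs are cleared by that decay, 6 of 9 were higher, with a median of 0.34. Snhg1 was at 70.3, 79.1 and 72.7 CPM in DMSO and 195, 191 and 190.2 CPM at 6 h (1.38, SE 0.0462), Snhg12 rose by 1.19 and Gas5 by 0.38. The lower ones were Snhg3 (-0.81) and Snhg4 (-0.31), and 71.5% of the exonic bases of Snhg3 lie opposite another gene.

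Circadian clock genes had 5 of 17 higher and 9 lower, with a median of -0.18 (-0.11 without DMSO replicate 1). Dbp, a clock output factor, was at 40.7, 36.2 and 39.4 CPM in DMSO and 7.58, 6.7 and 7.38 CPM at 6 h (-2.43, SE 0.0855, adjusted p = 9.8e-22 by edgeR), separate in all libraries. The clock repressor Nr1d1 fell by 0.56 and Per1 by 0.37, Cry1 rose by 0.79, and Per2 overlapped (0.05, adjusted p = 0.558). The labels give no hour of harvest.

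Collagen chains were lower in 14 of 20 and higher in 1, with a median of -0.26. Col3a1, a fibrillar chain, was at 1639.5, 1516 and 1624 CPM in DMSO and 759, 785 and 700.3 CPM at 6 h (-1.09, SE 0.0403, adjusted p = 3.7e-21 by edgeR). The chains of type I collagen, Col1a1 and Col1a2, were at 7613 ± 342 and 12157 ± 329.5 CPM in DMSO and 5685 ± 321 and 10104 ± 335 CPM at 6 h (-0.42 and -0.27). Each CFZ library was below each DMSO library for these 3. Col18a1 was lowest (-1.15) and Col12a1 did not pass (-0.14). The one higher chain, Col4a2 of basement membrane (0.17), lost its call with DESeq2, with both other scalings and without DMSO replicate 3 or CFZ replicate 1 (adjusted p up to 0.613).

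Of the other matrix proteins 25 of 35 were lower and 3 higher (median -0.32). Postn, periostin, fell by 0.45, Has2, a hyaluronan synthase, by 0.71, Sparc, a collagen-binding protein, by 0.17 and Fmod, fibromodulin, by 1.20. Thbs1, thrombospondin, was at 107, 122 and 104 CPM in DMSO and 225, 219.8 and 213 CPM at 6 h (0.99, SE 0.0677, adjusted p = 2.9e-14 by edgeR), the highest of the higher members, Thbs1 (0.99), Nid1 (0.28) and Fn1 (0.22). Fibronectin, Fn1, had overlapping libraries, and its call was lost under 6 alternatives, among them without DMSO replicate 2 or 3 or CFZ replicate 1 (adjusted p up to 0.345). The fibroblast markers counted at the start include collagens and Fn1, and 7 of those 8 were lower at 6 h, the exception being Fn1.

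Matrix proteases and the plasminogen system spread widely, with 6 of 24 higher, 12 lower and a median of -0.24, which was -0.05 without CFZ replicate 1. Mmp9, gelatinase B, was at 0.0507, 0.236 and 0.133 CPM in DMSO and 4.85, 4.44 and 4.67 CPM at 6 h (5.02, SE 0.32, adjusted p = 4.5e-15 by edgeR), from 7 to 187 counts over the group. Plaur, the urokinase receptor, was at 15.8, 15.7 and 14.5 CPM and 55.7, 53.2 and 58.6 CPM (1.86, SE 0.0567). Both were higher in each CFZ library. The tissue plasminogen activator Plat instead went from 46.6, 46.6 and 49.6 CPM to 12.1, 12.5 and 11.4 CPM (-1.98, SE 0.0655), and the protease inhibitor Timp1 fell by 0.31. Mmp13 had no count in DMSO and too few at 6 h to give a fold.

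Genes under YAP and TEAD were split, with 7 of 23 higher and 10 lower (median -0.09), although Cyr61, Ankrd1 and Ctgf, its standard targets, all rose. Ankrd1 was at 19.7, 21.4 and 19.4 CPM in DMSO and 45.7, 36.8 and 38.5 CPM at 6 h (1.0, SE 0.0692, adjusted p = 3.5e-14 by edgeR), and Ctgf at 139.9, 171 and 139 CPM and 236, 236 and 266 CPM (0.72, SE 0.055). Another target, Amotl2, overlapped between the groups (0.08, adjusted p = 0.0887), and Arhgef17 was lowest of the list (-0.62). For the actin and contractile genes linked to SRF, 16 of 33 were higher and 11 lower (median 0.15), or 13 and 15 by library size alone (median 0.01), and the median was 0.10 without CFZ replicate 3. Smooth muscle actin, Acta2, was at 495, 549 and 513 CPM in DMSO and 793, 799 and 791 CPM at 6 h (0.61, SE 0.0408), Pdlim7 rose by 1.01, Tagln by 0.39 and vinculin, Vcl, by 0.36. The adhesion adaptor Fblim1 fell by 0.76, Cnn1 overlapped (-0.12), and 67.9% of the exonic bases of Tagln lie opposite another gene.

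In the TGF-beta and BMP list 10 of 29 were higher and 13 lower, with a median of -0.07. The median was -0.03 without DMSO replicate 2 and -0.04 without CFZ replicate 3. Id2, a target of BMP signals that inhibits differentiation factors, was at 53.3, 53 and 44.2 CPM in DMSO and 16.3, 16.8 and 17.4 CPM at 6 h (-1.58, SE 0.0823, adjusted p = 2.8e-17 by edgeR), Id3 at 126, 133 and 109 CPM and 61.7, 66.4 and 70.5 CPM (-0.89, SE 0.0597), and Smad6, the BMP feedback inhibitor, at 11, 10.4 and 11.3 CPM and 2.12, 2.62 and 2.26 CPM (-2.22, SE 0.14). All were below their DMSO libraries, as was Id1 (-0.73). The TGF-beta feedback genes Smad7, Skil and Tgif1 rose instead, by 0.46, 0.32 and 0.76.

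Notch, Hedgehog and Wnt genes were lower in 16 of 23, with a median of -0.65 and 7 at least 2-fold lower. Gli1, the Hedgehog target and factor, was at 9.13, 9.21 and 10.1 CPM in DMSO and 4.78, 2.99 and 3.92 CPM at 6 h (-1.28, SE 0.13, adjusted p = 6.0e-10 by edgeR), and the Notch target Hes1 at 6.19, 7.68 and 8.49 CPM and 3.87, 4.08 and 4.74 CPM (-0.80, SE 0.14). Both were lower in each CFZ library, and the higher members were Fzd7 (0.66), Jag1 (0.32) and Notch2 (0.26), a Wnt receptor, a Notch ligand and a Notch receptor. Axin2, a Wnt target, was too low to compare, and Dkk3, under 1 CPM in DMSO, was lowest (-2.79).

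Integrins and growth factor receptors were lower in 19 of 30 and higher in 4, with a median of -0.46. The PDGF receptors, through which fibroblasts are driven to divide, were among the lower ones. Pdgfrb was at 377, 355 and 347 CPM in DMSO and 161, 159 and 155 CPM at 6 h (-1.18, SE 0.0464, adjusted p = 1.7e-20 by edgeR) and Pdgfra at 219.7, 203 and 203 CPM and 106, 107 and 96 CPM (-1.02, SE 0.0483). Neither overlapped between the groups. The EGF receptor gene Egfr fell by 0.42 and Erbb3 by 1.91, whereas Epha2, an ephrin receptor, was at 23.4, 31.4 and 26.5 CPM and 80.00, 77.7 and 85.5 CPM (1.59). The higher members were Epha2 (1.59), Fgfr1 (0.26), Itga5 (0.25) and Itgb1 (0.14), where Itga5 is the fibronectin receptor's alpha chain.

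**Figure D3:**
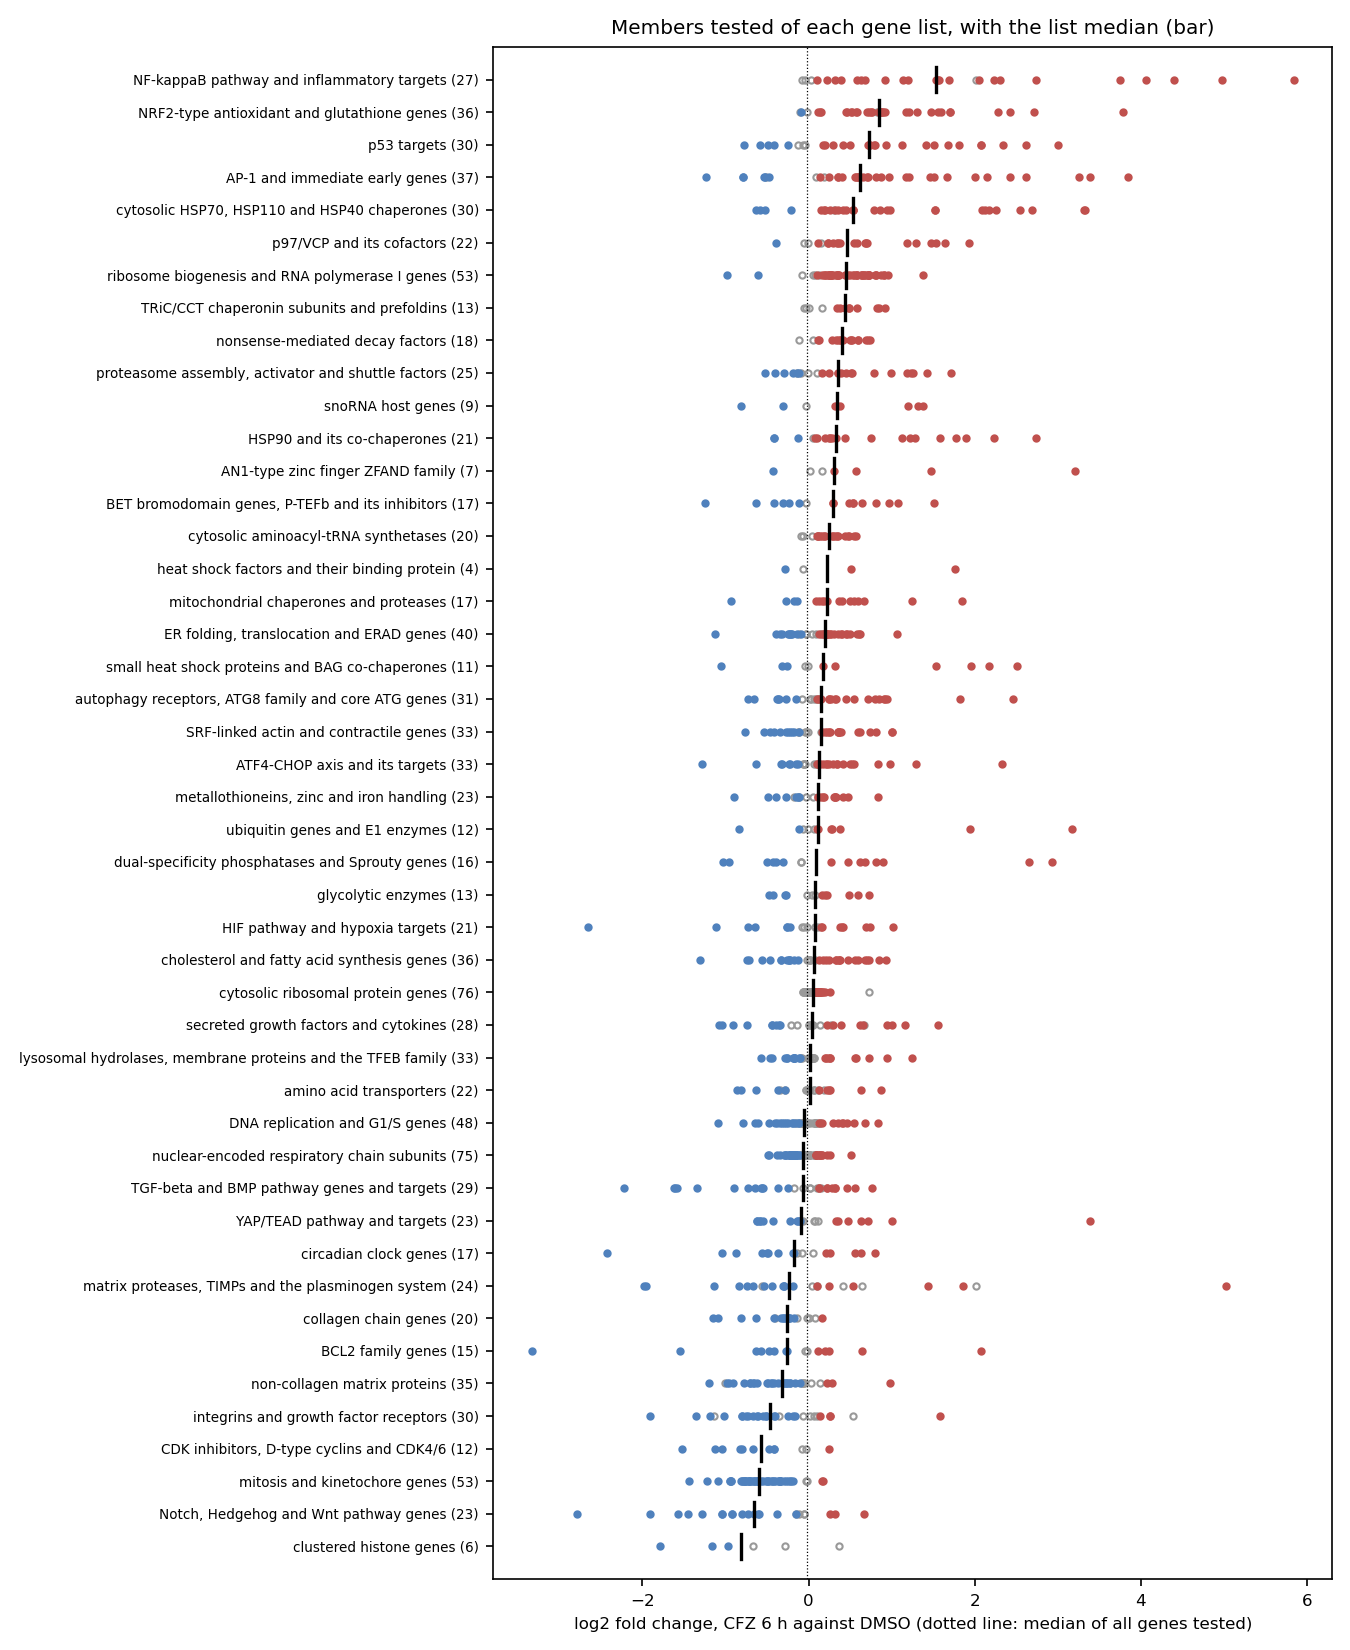
Log2 fold change of CFZ 6 h over DMSO (x axis) for each tested member of the gene lists (y axis, number tested in brackets), sorted by the list median (black bar). Red and blue points are members higher and lower at an adjusted p under 0.05, and open grey points are the others. The NF-kappaB list stands at the top with a median of 1.53, and mitosis (-0.59) and Notch, Hedgehog and Wnt genes (-0.65) stand near the bottom.

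**Figure D4:**
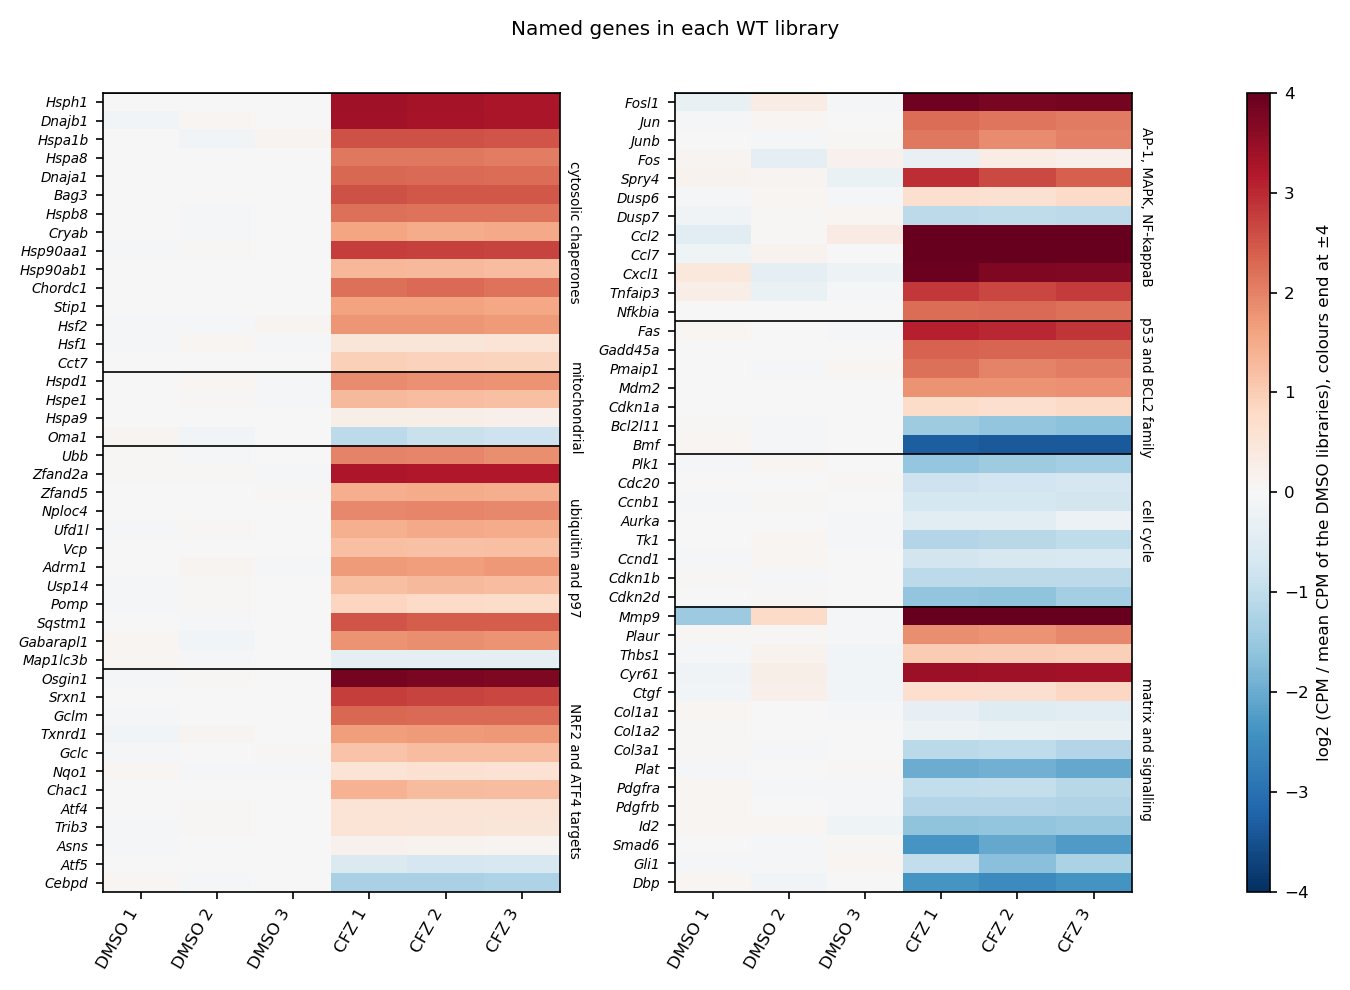
Each row is a named gene and each column 1 WT library, 3 of DMSO and 3 of CFZ 6 h, colored by the log2 of its TMM-scaled CPM over the mean of the DMSO libraries (colors end at 4 and -4). The 3 CFZ columns are alike in nearly every row, for example Hsph1 at 2089.5, 2019 and 1909 CPM and Bmf at 3.11, 2.99 and 3.01 CPM.

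The 20 leading genes were then followed to 24 h of CFZ in the WT cells. Between 24 h and 6 h, 8510 of the genes tested (72.4%) differed. That comparison shares the 6 h libraries with the one above, so the levels are given side by side. Ccl2 was at 161 ± 6.54 CPM at 6 h and 11 ± 0.116 CPM at 24 h (mean ± SD, n = 3), a difference of -3.88 (adjusted p = 4.1e-30 by edgeR), and Ccl7 went from 188 ± 9.36 to 16.3 ± 1.48 CPM (-3.52, adjusted p = 4.3e-27). Both chemokines thus stood well below their 6 h level at 24 h, and Cxcl1 was at 7.49 ± 0.44 CPM. The chaperones Hsph1 and Dnajb1 were at 858 ± 2.9 and 336 ± 3.06 CPM at 24 h, -1.22 and -1.26 from 6 h. Calr3 alone among the 10 leading rises was higher at 24 h, at 50.1 ± 1.88 CPM (1.42). Of the leading falls, Spon2, Bmf and Apln were lower again at 24 h (-2.08, -2.0 and -1.46), at 3.11 ± 0.816, 0.76 ± 0.142 and 0.582 ± 0.114 CPM, while Map2k6 and Abcd2 were higher than at 6 h (1.0 and 1.21) and Rgag1 did not pass (-0.34, adjusted p = 0.141).

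The interaction of genotype and CFZ at 6 h tested whether these early changes differed in the line without Nrf1. Nrf1 is the factor that raises proteasome genes when the proteasome is blocked. The interaction passed for 4502 genes (38.3%) and shares the WT libraries with the comparison above. Loss of Nrf1 and any other difference between the Nrf1KO line and the WT line cannot be told apart by it. Calr3, at 1.41 ± 0.0759 and 18.8 ± 0.48 CPM in the WT cells, was at 2.19 ± 0.38 CPM in Nrf1KO cells in DMSO and 1.71 ± 0.426 CPM at 6 h, an interaction of -4.15 (SE 0.25, adjusted p = 7.3e-15 by edgeR). Fosl1 was at 14.8 ± 0.265 CPM in Nrf1KO cells in DMSO and 56.6 ± 2.48 CPM at 6 h (-1.92, SE 0.11, adjusted p = 4.2e-15), and Osgin1 at 3.7 ± 0.306 and 20.8 ± 1.33 CPM (-1.26, SE 0.15, adjusted p = 4.4e-08). The log2 change was lower in the Nrf1KO cells for these 3. For Dnajb1 it was higher (0.56, adjusted p = 2.0e-08), for Hsph1 slightly so (0.24), and for Ccl7 and Aox1 the interaction did not pass (-0.07 and -0.36, adjusted p = 0.743 and 0.289). Nfe2l1, the gene of Nrf1 itself, rose by 0.52 in the WT cells at 6 h.

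Across genes, the change also varied with gene structure in the GRCm38 annotation (GENCODE vM21), in which 11643 of the tested symbols were found. The 1249 genes spanning up to 5 kb had a median change of -0.17, with 21.5% higher and 46.0% lower, against 0.05 for the 3307 genes spanning 20 to 50 kb and 0.05 for the 1745 spanning 50 to 100 kb. The 1530 genes over 100 kb had a median of -0.09. Genes annotated with a single exon (228) had a median of -0.28, and their median DMSO level was 7.0 CPM. These classes also differed in level, with a median DMSO level of 18.9 CPM in genes up to 5 kb and 38.7 CPM in those of 20 to 50 kb, and by level alone the 2911 genes lowest in DMSO had a median of -0.25 and the 2911 highest one of 0.06. Genes are not independent replicates, and the parts of span, exon number and level in these medians were not tested.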

How the data were processed

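Messenger RNA of 18 NIH-3T3 cultures was sequenced, of which 6 are compared here. The authors made stranded libraries (KAPA kit), sequenced them as paired 125 base reads on an Illumina HiSeq and counted reads with the RNA Express app, which runs STAR and DESeq2, and they deposited raw counts per gene for all libraries in one table. The genome build, the annotation and the use of strand in counting are not given in the sources used here. Columns were matched to samples by name, with 0 columns left unmatched.

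Counts were analysed with edgeR 4.0.16 in R 4.3.3 (limma 3.58.1). Genes were kept with a count of at least 10 in enough libraries and a total of at least 15 (filterByExpr), which left 11762 of 23420. TMM scaling and 1 quasi-likelihood model over the 6 groups of the 18 libraries were used, with Benjamini-Hochberg adjustment over all genes tested, a threshold of 0.05 and SEs from the F statistic. The interval of a ratio of counts is exact and covers counting error only, and the floor is 3 counts. The members and gene lists were chosen with earlier results of these data known. Named genes are the 10 largest changes in each direction past the threshold, with a mean count of at least 50, outside the heat map lists and with unnamed gene models left out. They also include, for each list, preset members and its highest and lowest member, the 5 highest genes with at most 3 summed counts in DMSO, and Nfe2l1. Genes named because a count was 5 or fewer were chosen after their values were seen. Rows whose symbols had become dates (27, of which 19 were tested) stayed in the fit and are not named. A few further genes stayed in the fit and the counts and are not reported here.

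Alternatives were DESeq2 1.42.0, upper-quartile scaling, library size alone, no filter on low counts, a mean count of at least 10, a fit of the compared groups only, a replicate block, and leaving out each replicate in turn. Positions came from GENCODE vM21 (GRCm38), matched by symbol for 11643 of 11762 genes, 611 of them by an older symbol, and promoter windows from RefSeq (GRCm38.p6) for 9283. Sequence shared with other genes is given above for some named genes only, and others have it too. Among these are Hspa8 and Hspd1, with 25.1% and 19.1% of their 125-base transcript stretches in predicted genes or pseudogenes. Exons of other genes lie opposite 28.3% of the exonic bases of Gabarapl1, 26.0% of Usp14, 25.5% of Vcl and 23.2% of Ctgf. The edgeR and DESeq2 fits were tested on simulated counts in which few genes changed. Most genes changed in these data, so that test does not check the scaling here. It did not cover the list, promoter and annotation steps.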

Additional observations from a re-analysis of the deposited data

Results flagged for a closer look

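Of the 20 genes with the largest changes at 6 h, 19 differed between 24 h and 6 h of CFZ in the WT cells by edgeR's quasi-likelihood test of that difference, beside 72.4% of all genes tested. The 20 were chosen by their change at 6 h, and the 6 h libraries enter this test again, so the count is not independent of that choice. Values are log2 fold changes of 24 h over 6 h. Among the genes that had risen, Ccl2 was at -3.88, Ccl7 at -3.52, Cxcl1 at -1.61, Dnajb1 at -1.26, Hsph1 at -1.22, Cyr61 at -0.46, Fosl1 at -0.45, Osgin1 at -0.27 and Aox1 at -0.22, all below their 6 h level, and Calr3 was above it at 1.42. Among those that had fallen, Spon2 was at -2.08, Bmf at -2.0, Apln at -1.46, Aff3 at -1.34, Cdh1 at -1.04, Mn1 at -0.95 and Cacna1a at -0.60, lower again, whereas Abcd2 was at 1.21 and Map2k6 at 1.0. The difference of Aox1 was lost with DESeq2, with library size alone and without 24 h replicate 2 or 6 h replicate 1 (adjusted p up to 0.228), that of Cacna1a without 24 h replicate 3 and that of Cdh1 without 24 h replicate 2.

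The response at 6 h differed between Nrf1KO and WT cells, by the interaction in the same model, for 14 of the 20, beside 38.3% of all genes tested. The interaction subtracts the WT change by which the 20 were chosen. That choice favors smaller changes in the Nrf1KO cells, so the count and the directions are not independent of it. The log2 fold change was lower in Nrf1KO cells for Calr3 (-4.15), Fosl1 (-1.92), Osgin1 (-1.26), Cxcl1 (-0.72) and Ccl2 (-0.50). It was higher there for Rgag1 (1.61), Abcd2 (1.24), Mn1 (1.10), Map2k6 (0.97), Cdh1 (0.91), Apln (0.80), Dnajb1 (0.56), Aff3 (0.31) and Hsph1 (0.24). A lower log2 change need not mean a lower level at 6 h. Mean Cxcl1 was 3.85 CPM in DMSO and 31.5 CPM at 6 h in Nrf1KO cells, against 1.66 and 22.9 CPM in WT cells. Mean Ccl2 was 3.89 and 155 CPM, against 2.87 and 161 CPM. Except for Osgin1, the genes with a lower change had a higher mean in DMSO in Nrf1KO cells than in WT cells. The interaction of Ccl2 was lost without WT DMSO replicate 1 or Nrf1KO DMSO replicate 1 or 2 (adjusted p up to 0.166), and that of Aff3 without WT CFZ 6 h replicate 3 (adjusted p = 0.0655).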

How the results depend on the processing

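The count of changed genes at 6 h stayed within 1.5 times that of the report under each alternative run. It was 8039 with DESeq2 (3805 higher, 4234 lower), 8647 with upper-quartile scaling (3274 and 5373), 8710 by library size alone (3087 and 5623), 8506 with no filter, 8344 with a mean count of at least 10 and 8458 with the compared groups only, and 0 shared called genes changed sign. The counts at least 2-fold higher and lower, 468 and 665 in the report, moved more with scaling. They were 392 and 853 with upper-quartile scaling and 375 and 896 by library size alone. With no filter they were 479 and 828, with DESeq2 446 and 682, and with the compared groups only 421 and 595. A mean count of at least 10 gave 435 and 588. Leaving out each replicate in turn gave 8050 to 8216 changed genes, 4015 to 4118 higher, 3973 to 4140 lower, 457 to 477 at least 2-fold higher and 632 to 694 at least 2-fold lower. Same-numbered DMSO and CFZ libraries showed no shared deviation from their group means (r = 0.026, -0.047 and 0.006). Such values cannot show whether cultures of the same number were grown or handled together. With the replicate block 8521 genes changed (4221 higher, 4300 lower, 464 and 664 of them at least 2-fold).

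With library size alone the changes of Sars (-0.01835), Mcm5 (-0.006534) and Rplp0 (-0.01226) changed sign, as did the medians of ubiquitin genes (-0.02227), lysosome (-0.1148), the ATF4 axis (-0.002028), amino acid transporters (-0.1207), metal genes (-0.01887), MAP kinase phosphatases (-0.03908), growth factors (-0.08078), hypoxia (-0.05568), glycolysis (-0.05562), ribosomal proteins (-0.07576) and sterol genes (-0.06278). With upper-quartile scaling the medians of lysosome (-0.09152), amino acid transporters (-0.09733), MAP kinase phosphatases (-0.01624), growth factors (-0.05828), hypoxia (-0.03254), glycolysis (-0.03252), ribosomal proteins (-0.05245) and sterol genes (-0.03969) did so. For lysosome and amino acid transporters the median was also negative with DESeq2 (-0.006195 and -0.01202) and with no filter (-0.01055 and -0.01645). Over the omission of each replicate the median ran from -1.048e-05 to 0.02912 for lysosome, from -0.003053 to 0.03273 for amino acid transporters and from -0.01243 to 0.08428 for growth factors. These scalings shift all genes by their construction, and other causes were not tested. With 3 libraries a group, some calls rested on single libraries, as named in the report.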
